A study of Mus musculus with 18 samples.

Results

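The 10 genes described here mark macrophages and their products: Mrc1, Csf1r, C1qa, C1qb, C1qc, Cd68, Cd163, Cx3cr1, Cd14 and Lyz2. They were found by exact gene symbol among the annotated probe sets of a mouse whole-transcript array, and all 10 were among the 22180 genes measured, each by 1 probe set. Their levels are given across 4 groups of mice, in ileum taken 21 days after an allogeneic bone marrow transplant that serves as a model of graft-versus-host disease (GvHD).

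Every mouse was a B10.BR recipient, 8 to 12 weeks old at transplant, and had been given 11 Gy of total body irradiation followed by 5000000 marrow cells, depleted of T cells, from C57BL/6 donors. In addition, 9 recipients were given 2000000 purified donor T cells, the arm that models GvHD, and the other 9 were marrow-only controls. No disease score of single mice is analysed here. In each arm 5 mice were gavaged once a day with 150 mg/kg of indole-3-carboxaldehyde (ICA), an indole, and 4 with its vehicle of 20% DMSO, 40% PEG400 and 2% citric acid, from the day before transplant onwards. The groups are thus T cells with ICA (n = 5), T cells with vehicle (n = 4), marrow only with ICA (n = 5) and marrow only with vehicle (n = 4). The controls are irradiated and transplanted across the same strain barrier, no untransplanted ileum is analysed here, and an array of whole ileum does not separate recipient from donor RNA.

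Tissue macrophages of the intestine are replenished largely by monocytes from the blood, and their survival and maturation depend on the receptor for colony stimulating factor 1, encoded by Csf1r. C1q is the recognition subunit that starts the classical complement pathway, and unlike most complement proteins, which come mainly from the liver, it is made chiefly by macrophages and dendritic cells. Its 3 chains, encoded by C1qa, C1qb and C1qc, assemble together into 1 protein.

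The promoters of the members on which the results turn are shown with matches to a pair of short motifs used by myeloid transcription factors. RefSeq promoters on build GRCm38.p6 were at hand for 7 of the 10 members, and the 250 bases before the annotated start are printed 5′ to 3′ on the gene's own strand. Capitals mark GAGGAA, a core bound by Ets-family factors such as PU.1, and TGCTGA, a core part of the Maf recognition element, read on both strands (TTCCTC and TCAGCA on the other). The motifs do not overlap in these windows. The first promoter is that of Mrc1, the member with the steadiest difference below, at chr2:14229164-14229413 on the plus strand. C1qb (chr4:136886201-136886450) and C1qc (chr4:136892915-136893164), both on the minus strand, are shown as neighbouring genes whose levels moved together from mouse to mouse. Lyz2 (chr10:117282273-117282522) and its neighbour and near-identical paralog Lyz1 (chr10:117292869-117293118), both on the minus strand, are shown because a probe set may read both.
Mrc1: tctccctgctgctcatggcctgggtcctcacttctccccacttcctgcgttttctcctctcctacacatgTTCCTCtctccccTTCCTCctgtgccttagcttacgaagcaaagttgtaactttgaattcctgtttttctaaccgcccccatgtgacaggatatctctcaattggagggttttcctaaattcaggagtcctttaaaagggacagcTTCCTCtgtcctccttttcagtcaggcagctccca
C1qb: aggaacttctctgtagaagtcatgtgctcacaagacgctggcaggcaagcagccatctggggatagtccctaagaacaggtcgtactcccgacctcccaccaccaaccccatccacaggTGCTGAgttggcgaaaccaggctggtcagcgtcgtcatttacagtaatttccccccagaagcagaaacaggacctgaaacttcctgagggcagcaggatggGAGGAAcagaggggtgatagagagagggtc
C1qc: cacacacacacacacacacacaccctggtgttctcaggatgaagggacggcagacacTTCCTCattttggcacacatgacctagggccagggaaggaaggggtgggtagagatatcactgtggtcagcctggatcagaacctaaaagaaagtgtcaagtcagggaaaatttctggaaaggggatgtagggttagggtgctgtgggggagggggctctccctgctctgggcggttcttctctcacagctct
Lyz2: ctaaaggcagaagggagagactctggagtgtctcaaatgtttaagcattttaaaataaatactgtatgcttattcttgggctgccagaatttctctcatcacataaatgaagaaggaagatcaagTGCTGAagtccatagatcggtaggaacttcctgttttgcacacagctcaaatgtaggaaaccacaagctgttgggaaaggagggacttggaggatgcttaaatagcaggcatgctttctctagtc
Lyz1: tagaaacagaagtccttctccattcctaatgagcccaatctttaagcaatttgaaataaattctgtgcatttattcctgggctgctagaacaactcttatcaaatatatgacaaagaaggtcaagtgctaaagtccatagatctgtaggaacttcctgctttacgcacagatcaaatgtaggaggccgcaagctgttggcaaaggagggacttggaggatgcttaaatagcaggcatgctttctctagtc

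The Mrc1 window held 3 matches to GAGGAA, the C1qb window 1 match to each motif and the C1qc window 1 match to GAGGAA. Lyz2 held 1 match to TGCTGA, and neither motif was found in the Lyz1 window. Among 32851 promoter windows of the same length, 23.3% held GAGGAA, 16.1% held TGCTGA and 3.68% held both. Aligned base by base without gaps, the Lyz2 and Lyz1 windows were identical at 152 of 250 positions, and at 92 of the last 100. The C1qb and C1qc windows were identical at 55 of 250 positions. In the RefSeq gene order C1qb, C1qc and C1qa follow each other with no gene between them. A match describes these letters and says nothing of binding.

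Values below are RMA levels on the log2 scale, so a difference of 1 is a factor of 2, and a level is compared only with the same gene's level in other mice. Array medians lay between 6.47 and 6.51 and any pair of arrays correlated at 0.978 to 0.993. Mouse 1 of the T cell ICA group and mouse 1 of the marrow-only ICA group had the lowest mean correlations with their own groups (0.985 and 0.984), so results are also given without these 2 arrays, a choice made after seeing the data. Both are ICA mice, so leaving them out cannot move a difference between the vehicle groups. There it changes only the estimate of a gene's spread, which all 4 groups share, and the adjustment over genes. Genes called between the vehicle groups went from 327 to 754. The mean over 10 ileal epithelial markers lay at 11.75 to 11.82 in T cell ICA mice, 11.80 to 11.89 in T cell vehicle mice, 11.43 to 11.93 in marrow-only ICA mice and 11.72 to 11.90 in marrow-only vehicle mice. Among colon and stomach genes, Car1 varied widely, up to 10.31, 8.94, 12.04 and 6.26 in the same order of groups. Differences were tested with limma over all 22180 genes. Each p was adjusted after Benjamini and Hochberg, and a gene is said to have changed at an adjusted p under 0.05. Errors of differences are standard errors, and intervals are at 95%.

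The first question was how the genes differ between recipients of T cells and marrow-only recipients under vehicle. Mrc1, Csf1r, C1qb and C1qa rose in T cell mice, by 1.93-fold, 1.89-fold, 1.67-fold and 1.60-fold, so that 4 of the 10 members rose, against 0.794% of all genes tested. None of the 10 fell, against 0.681%. The members were chosen with earlier results of these data known, so these shares are not an independent test. C1qc and Cd68 were higher by 1.53-fold and 1.61-fold without passing the test. The levels of the T cell and marrow-only vehicle mice did not overlap for 6 members, these 4 and C1qc and Cd68, against 6.33% of all genes. The median difference of the 10 members was 0.65, against 0.01 over all genes. In a piece of whole tissue, more macrophages and more RNA per macrophage cannot be told apart.

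**Figure D1:**
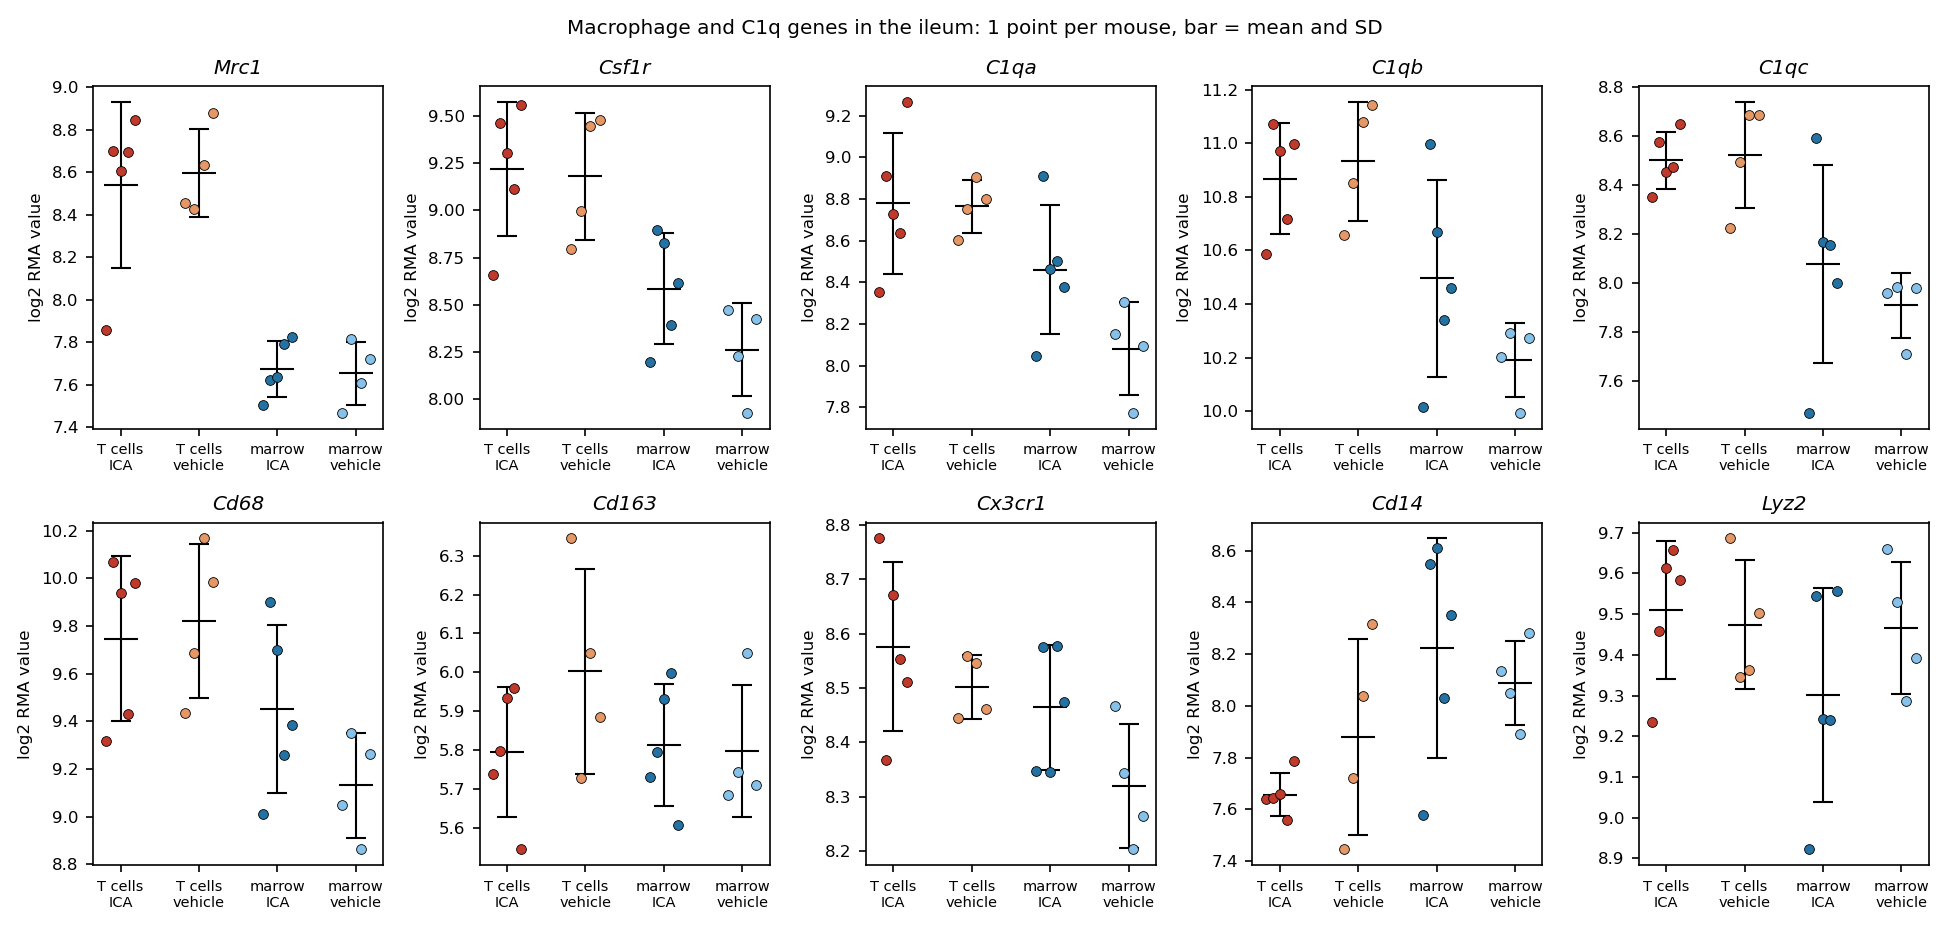
Level of each member (log2 RMA value, y axis, 1 panel per gene) in each mouse, with the groups along the x axis in the order T cells with ICA, T cells with vehicle, marrow only with ICA and marrow only with vehicle; points are mice and bars are the mean and SD (n = 5, 4, 5 and 4). Mrc1 separates all 9 T cell mice (lowest 7.86) from all 9 marrow-only mice (highest 7.82), while Cd163, Cx3cr1 and Lyz2 overlap between groups.

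Mrc1 encodes the mannose receptor CD206, an endocytic receptor of tissue macrophages. Its level was 7.86, 8.70, 8.61, 8.70 and 8.84 in the 5 T cell ICA mice and 8.45, 8.43, 8.64 and 8.88 in the 4 T cell vehicle mice. It was 7.50, 7.62, 7.64, 7.79 and 7.82 in the 5 marrow-only ICA mice and 7.47, 7.81, 7.61 and 7.72 in the 4 marrow-only vehicle mice. All 9 mice given T cells lay above all 9 that were not. The nearest was mouse 1 of the T cell ICA group, at 7.86 against 7.82 in the highest marrow-only mouse. How many of all genes separated the arms in this way was not counted. Group means were 8.54 ± 0.39 (SD, n = 5), 8.60 ± 0.21 (n = 4), 7.68 ± 0.13 (n = 5) and 7.65 ± 0.15 (n = 4) in the same order. The difference made by T cells was 0.95 ± 0.16 under vehicle (adjusted p = 0.00386, limma). The call held without any 1 of the 8 vehicle mice, with differences of 0.85 to 1.0. It also held, with the same difference, without the 2 arrays that stood apart (adjusted p = 4.91e-05).

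Csf1r encodes the receptor tyrosine kinase for colony stimulating factor 1 and interleukin 34. It stood at 8.66, 9.46, 9.30, 9.11 and 9.56 in T cell ICA mice and at 8.80, 9.0, 9.45 and 9.48 in T cell vehicle mice. It stood at 8.20, 8.89, 8.83, 8.39 and 8.62 in marrow-only ICA mice and at 8.47, 8.23, 7.93 and 8.43 in marrow-only vehicle mice. Under vehicle every T cell mouse was above every marrow-only mouse, and under ICA 4 of 5 were, mouse 1 falling among the controls. The difference under vehicle was 0.92 ± 0.19 (adjusted p = 0.0181, limma). Leaving out T cell vehicle mouse 3 or 4, or marrow-only vehicle mouse 2 or 3, ended the call, with a highest adjusted p of 0.0736, while the difference stayed at 0.81 to 1.04. Without the 2 arrays that stood apart the difference was the same and the adjusted p was 0.00299.

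C1qb, the chain with the highest test statistic of the 3, had levels of 10.59, 11.07, 10.97, 10.72 and 11.00 in T cell ICA mice and 10.66, 10.85, 11.08 and 11.14 in T cell vehicle mice. It had 10.02, 11.00, 10.67, 10.34 and 10.46 in marrow-only ICA mice and 10.20, 10.29, 9.99 and 10.27 in marrow-only vehicle mice. The 4 marrow-only vehicle mice were low and close together, while the marrow-only ICA mice ran from their levels up to those of T cell mice. Its means were 10.87 ± 0.21 (SD, n = 5) and 10.93 ± 0.22 (n = 4) in T cell mice with ICA and vehicle, and 10.50 ± 0.37 (n = 5) and 10.19 ± 0.14 (n = 4) in marrow-only mice with ICA and vehicle. The difference made by T cells under vehicle was 0.74 ± 0.16 (adjusted p = 0.0205, limma). It was no longer called without T cell vehicle mouse 3 or 4 or marrow-only vehicle mouse 1, 3 or 4, where it was 0.67 or more and the adjusted p at most 0.0789. With the same difference, it was called without the 2 arrays that stood apart (adjusted p = 0.00333).

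C1qa had levels of 8.35, 8.91, 8.73, 8.64 and 9.27 in T cell ICA mice and 8.60, 8.75, 8.90 and 8.80 in T cell vehicle mice. It had 8.05, 8.91, 8.47, 8.50 and 8.38 in marrow-only ICA mice and 8.15, 8.31, 7.77 and 8.10 in marrow-only vehicle mice. Here too the vehicle groups were separate and the ICA groups overlapped. The difference under vehicle was 0.68 ± 0.17 (adjusted p = 0.0478, limma), close to the threshold, and it was lost when any 1 of the 8 vehicle mice was left out (differences of 0.58 to 0.76, adjusted p of 0.0518 to 0.139). Without the 2 arrays that stood apart the difference was the same and its adjusted p was 0.0086.

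C1qc completes the C1q protein. Its levels were 8.35, 8.57, 8.45, 8.47 and 8.65 in T cell ICA mice and 8.22, 8.49, 8.68 and 8.69 in T cell vehicle mice. They were 7.47, 8.59, 8.16, 8.16 and 8.00 in marrow-only ICA mice and 7.96, 7.98, 7.71 and 7.98 in marrow-only vehicle mice. The vehicle groups did not overlap, and the marrow-only ICA group held both the lowest level of all 18 mice and one above 4 of the 5 T cell ICA mice. The difference under vehicle, 0.61 ± 0.16 (adjusted p = 0.0581, limma), missed the threshold. It passed without T cell vehicle mouse 1 (adjusted p = 0.0349) and, unchanged in size, without the 2 arrays that stood apart (adjusted p = 0.00677).

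Cd68, a lysosomal membrane glycoprotein of phagocytes, showed the same layout. It was at 9.32, 10.07, 9.94, 9.43 and 9.98 in T cell ICA mice and 9.44, 9.69, 10.17 and 9.99 in T cell vehicle mice. It was at 9.01, 9.90, 9.70, 9.26 and 9.38 in marrow-only ICA mice and 9.05, 9.35, 8.86 and 9.26 in marrow-only vehicle mice. The T cell vehicle mice were all above the marrow-only vehicle mice, with a gap between the groups that was small beside the spread within them. The difference of 0.69 ± 0.20 did not pass the test (adjusted p = 0.0844, limma). It passed without T cell vehicle mouse 1 (adjusted p = 0.0484) and, unchanged in size, without the 2 arrays that stood apart (adjusted p = 0.028).

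**Figure D2:**
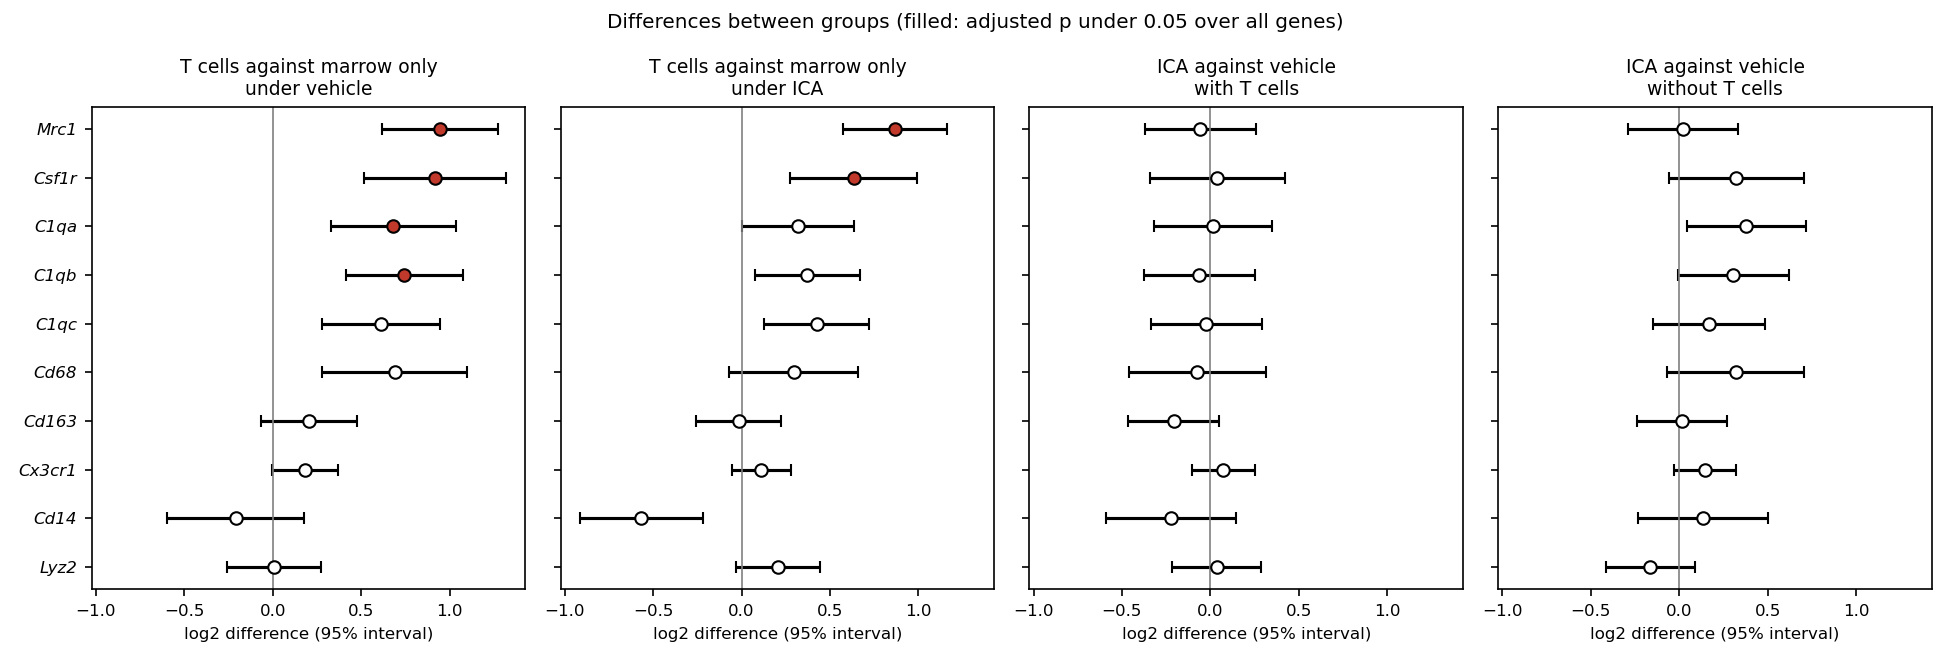
Difference in level (log2, x axis) of each member (y axis), 1 panel per comparison, with points at the limma estimate, bars for the 95% confidence interval and filled points where the adjusted p over 22180 genes was under 0.05. Mrc1, Csf1r, C1qa and C1qb pass under vehicle and Mrc1 and Csf1r under ICA for T cells against marrow only, and no member passes for ICA against vehicle.

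The same comparison was made among the mice given ICA. Mrc1 and Csf1r rose in T cell mice, by 1.82-fold and 1.55-fold, so that 2 of 10 members rose, against 1.05% of all genes tested, and none fell, against 2.07%. Both rose under vehicle and under ICA, which 0.257% of all genes did. The ICA groups did not overlap for 1 member, Mrc1, against 1.16% of all genes in that direction. The median difference of the members was 0.31, against -0.01 over all genes.

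For Mrc1 the difference between T cell and marrow-only mice under ICA was 0.87 ± 0.14 (adjusted p = 0.00135, limma), and it was called without any 1 of the 10 ICA mice and without the 2 arrays that stood apart (0.99, adjusted p = 1.06e-05). For Csf1r it was 0.63 ± 0.17 (adjusted p = 0.0472, limma), lost in 8 of the 10 fits that left out 1 ICA mouse, with differences of 0.54 to 0.77 and a highest adjusted p of 0.123. Without the 2 arrays that stood apart Csf1r was at 0.68 (adjusted p = 0.0109).

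The C1q genes and Cd68 did not pass under ICA. Their differences between T cell and marrow-only mice were 0.32 ± 0.15 for C1qa (adjusted p = 0.298), 0.37 ± 0.14 for C1qb (adjusted p = 0.174), 0.42 ± 0.14 for C1qc (adjusted p = 0.119) and 0.30 ± 0.18 for Cd68 (adjusted p = 0.431, all limma). Of the 5 T cell ICA mice, 2 were above every marrow-only ICA mouse for C1qa, 1 for C1qb, 1 for C1qc and 3 for Cd68. The highest marrow-only ICA mouse was mouse 2 in each of these genes, and others also lay within the T cell ICA range for C1qa, C1qb and Cd68. Without mouse 2 C1qb and C1qc passed (adjusted p = 0.0385 and 0.0214), while without the 2 arrays that stood apart they did not (adjusted p = 0.153 and 0.134).

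Cd14, the co-receptor that hands bacterial lipopolysaccharide to TLR4 and is found on monocytes as well as macrophages, went the other way under ICA without passing the test. Its levels were 7.64, 7.64, 7.66, 7.56 and 7.79 in T cell ICA mice and 7.45, 7.72, 8.04 and 8.31 in T cell vehicle mice. They were 7.58, 8.55, 8.61, 8.03 and 8.35 in marrow-only ICA mice and 8.13, 8.05, 7.89 and 8.28 in marrow-only vehicle mice. The T cell ICA mice were tightly grouped and below 4 of the 5 marrow-only ICA mice, all but mouse 1, whereas the T cell vehicle mice ran from the lowest level of all 18 mice to one of the higher ones.

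The difference in Cd14 was -0.57 ± 0.17 under ICA (0.676-fold, adjusted p = 0.0683, limma) and -0.21 ± 0.19 under vehicle (adjusted p = 0.716). Under ICA it passed without marrow-only ICA mouse 1 (-0.73, adjusted p = 0.00316) and without the 2 arrays that stood apart (-0.72 ± 0.15, adjusted p = 0.00634). Of 9 genes of the lipopolysaccharide receptor and its partners, none passed under vehicle, the smallest p being that of the co-receptor Tlr6 (0.28 ± 0.14, adjusted p = 0.408). Under ICA 1 fell, the adaptor Myd88 (-0.26 ± 0.07, adjusted p = 0.0485, limma).

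**Figure D3:**
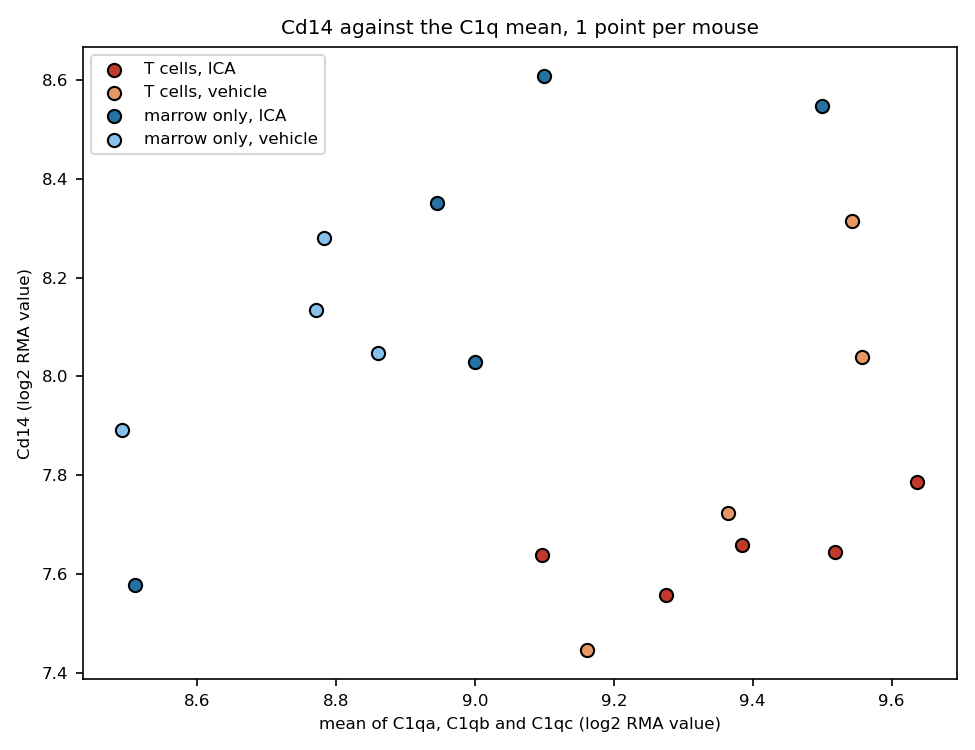
Cd14 level (log2 RMA value, y axis) against the mean level of C1qa, C1qb and C1qc (x axis), 1 point per mouse, coloured by group. The marrow-only mice and the T cell vehicle mice each run from lower left to upper right, and the T cell ICA mice form a flat band at a Cd14 level of 7.56 to 7.79 and a C1q mean of 9.10 to 9.64.

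Cd163, the macrophage receptor for haemoglobin bound to haptoglobin, had overlapping levels in all groups: 5.54 to 5.96 in T cell ICA mice, 5.73 to 6.34 in T cell vehicle mice, 5.61 to 6.00 in marrow-only ICA mice and 5.68 to 6.05 in marrow-only vehicle mice. The difference between T cell and marrow-only mice was 0.20 ± 0.13 under vehicle (interval -0.07 to 0.48) and -0.02 ± 0.12 under ICA, and neither passed. The mean level of Cd163, 5.85, was the lowest of the members and below every array median. How well differences are read at that level was not tested. Cx3cr1, the fractalkine receptor of resident gut macrophages and patrolling monocytes, lay at 8.37 to 8.78, 8.44 to 8.56, 8.35 to 8.58 and 8.20 to 8.47 in the same order of groups. Its differences were 0.18 ± 0.09 under vehicle (adjusted p = 0.393) and 0.11 ± 0.08 under ICA (adjusted p = 0.534, limma). Its ligand gene Cx3cl1 was at -0.12 ± 0.08 and -0.14 ± 0.08 in the same comparisons, and of the 3 genes of that axis none passed.

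Lyz2 encodes lysozyme M of macrophages and neutrophils, and Lyz1 lysozyme P, abundant in Paneth cells of the small intestine. Lyz2 lay at 9.24 to 9.66 in T cell ICA mice, 9.35 to 9.69 in T cell vehicle mice, 8.92 to 9.56 in marrow-only ICA mice and 9.29 to 9.66 in marrow-only vehicle mice. All 4 ranges overlapped, with differences between T cell and marrow-only mice of 0.01 ± 0.13 under vehicle (interval -0.26 to 0.27) and 0.21 ± 0.11 under ICA (interval -0.03 to 0.45). Lyz1 lay at 12.83 to 13.58 in T cell ICA mice, 12.57 to 13.68 in T cell vehicle mice, 13.48 to 13.71 in marrow-only ICA mice and 13.64 to 13.68 in marrow-only vehicle mice. Its difference was -0.60 ± 0.18 under vehicle (adjusted p = 0.097) and -0.30 ± 0.16 under ICA (adjusted p = 0.348, limma). Whether the Lyz2 probe set also reads Lyz1 RNA was not tested, so the Lyz2 level is uncertain. Deviations of the pair from their group means correlated at 0.25 over 18 mice.

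The next question was whether ICA changed the genes within an arm. With T cells, 0 of 10 members passed, against 0.0135% of all genes, and 0 had an unadjusted p under 0.05, against 6.89%. The differences of ICA from vehicle were -0.06 ± 0.15 for Mrc1 (interval -0.37 to 0.26), 0.04 ± 0.18 for Csf1r (-0.34 to 0.42), 0.01 ± 0.16 for C1qa (-0.32 to 0.35), -0.06 ± 0.15 for C1qb (-0.38 to 0.25) and -0.02 ± 0.15 for C1qc (-0.34 to 0.29). Cd68 was at -0.07 ± 0.19, Cd14 at -0.22 ± 0.18 and Cd163 at -0.21 ± 0.12.

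Without T cells, 0 of 10 members passed, against 0.00451% of all genes, and 1, C1qa, had an unadjusted p under 0.05, against 7.52%. The difference of ICA from vehicle was above 0 for 9 of 10 members, as it was for 53.5% of all genes, and the members' median was 0.16, against 0.01. C1qa was at 0.38 ± 0.16 (adjusted p = 0.638, limma), C1qb at 0.31 ± 0.15, C1qc at 0.17 ± 0.15, Cd68 at 0.32 ± 0.19 and Csf1r at 0.32 ± 0.18. For each of the C1q genes, 4 of the 5 marrow-only ICA mice were above all 4 marrow-only vehicle mice, the exception being mouse 1. For C1qc, mouse 5 had a level of 8.00, against 7.98 in the highest marrow-only vehicle mouse. The C1q genes followed each other from mouse to mouse (r of 0.83 to 0.91), so these are not independent counts. How many of all genes showed this layout was not counted. Mrc1 was at 0.02 ± 0.15, with mixed groups. Without the 2 arrays that stood apart the differences were 0.48 ± 0.14 for C1qa, 0.43 ± 0.13 for C1qb and 0.32 ± 0.12 for C1qc, still short of the threshold (adjusted p = 0.095, 0.111 and 0.197, limma).

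The test of whether the effect of ICA differed between the arms gave 0 of 10 members, against 0% of all genes, and 0 members at an unadjusted p under 0.05, against 6.68%. The ICA effect with T cells minus that without was -0.36 ± 0.23 for C1qa, -0.37 ± 0.21 for C1qb, -0.39 ± 0.26 for Cd68, -0.28 ± 0.26 for Csf1r and -0.08 ± 0.21 for Mrc1. The smallest p among the members was 0.0969, for C1qb (adjusted p = 0.789, limma). The larger C1q differences under vehicle than under ICA were therefore not shown to differ.

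The genes were next compared from mouse to mouse within groups, by correlating deviations from the group mean over the 18 mice. Of 45 pairs of members, 15 passed a permutation test of Pearson's r adjusted over the pairs, all positive, and 14 passed by Spearman's rho. All 10 pairs among C1qa, C1qb, C1qc, Csf1r and Cd68 passed, with r of 0.762 to 0.946. The closest pair was C1qb and Cd68 (r = 0.95, rho = 0.94, permutation p = 1e-05, the smallest that 100000 permutations can give, adjusted p = 0.00015). C1qb and C1qc followed each other at r = 0.91 and rho = 0.86 (permutation test, adjusted p = 0.000514), and C1qa and C1qb at r = 0.83 and rho = 0.78 (adjusted p = 0.00072). When the 2 mice farthest from the median of the first gene of a pair were left out, these 10 pairs all passed, with r of 0.739 or more. All members share 1 array and 1 piece of ileum per mouse.

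**Figure D4:**
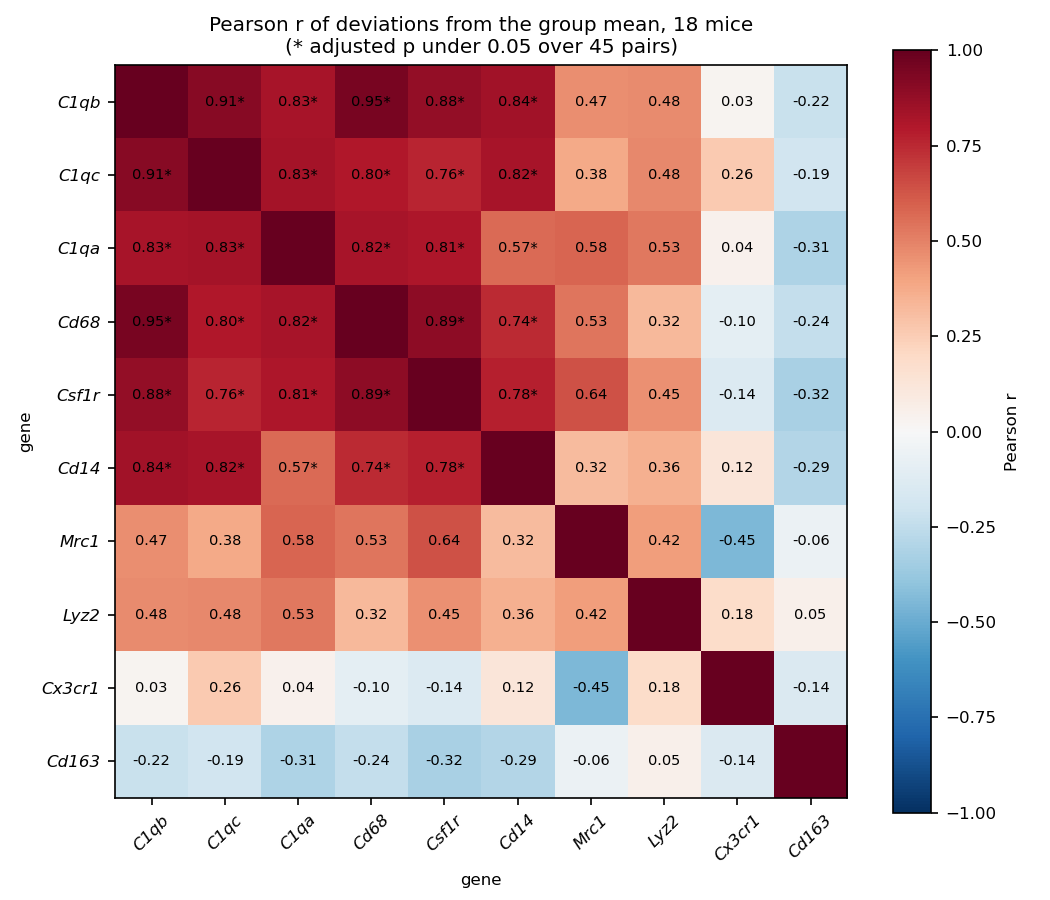
Pearson r between the deviations of each pair of members from their group means over 18 mice, with both axes listing the genes and colour running from -1 to 1; a star marks an adjusted p under 0.05 over 45 pairs. A block of C1qb, C1qc, C1qa, Cd68, Csf1r and Cd14 is marked throughout, and no pair with Mrc1, Lyz2, Cx3cr1 or Cd163 is.

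Cd14 joined this block within groups although its group means ran differently. It correlated with C1qb at r = 0.84 and rho = 0.82 (permutation test, adjusted p = 0.000975), with Csf1r at r = 0.78 and rho = 0.84 (adjusted p = 0.00045) and with Cd68 at r = 0.74 and rho = 0.74 (adjusted p = 0.00284). Its pairs with C1qc (r = 0.82, rho = 0.74, adjusted p = 0.00501) and C1qa (r = 0.57, rho = 0.54, adjusted p = 0.0221) lost their call when the 2 mice farthest from the median were left out (permutation test, adjusted p = 0.186 in each). Mrc1, which separated the arms best, passed with no other member: its highest r was 0.64, with Csf1r (permutation test, adjusted p = 0.0524). Cd163, Cx3cr1 and Lyz2 passed with none either, with highest r of 0.05, 0.26 and 0.53.

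Over all other genes, those whose deviations were most like the mean of the 3 C1q genes were Nfkbie (r = 0.93), an inhibitor of NF-kappaB, Cyth4 (0.93), Nckap1l (0.92), Wfdc17 (0.92) and Gm2a (0.92), the lysosomal GM2 activator, over the 18 mice. Of these 5, Wfdc17 rose with T cells under vehicle (1.04 ± 0.24, adjusted p = 0.0294, limma). Nfkbie was at 0.10 ± 0.15 there. The genes most like Lyz2 were 1700020L24Rik (r = 0.91), Mcat (0.88) and Unc5cl (0.85). None of these 8 genes is in the macrophage lists used here.

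Other markers of resident macrophages were taken as a list of 22 measured genes. This list, like the others below, was chosen with earlier results of these data known, so its counts are not an independent test. With T cells, 6 rose and none fell under vehicle, and 7 rose and none fell under ICA. Of all genes, 0.794% rose under vehicle and 1.05% under ICA. The list's median differences were 0.45 and 0.32 against 0.01 and -0.01 over all genes. Without the 2 arrays that stood apart 10 rose in each comparison, and 1, Timd4, fell under vehicle. Calls over all 22180 genes rose there too, from 327 to 754 under vehicle and from 693 to 1446 under ICA. Leaving out 1 mouse gave 4 to 7 calls under vehicle and 3 to 9 under ICA.

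Trem2, a lipid-sensing receptor, had means of 6.95 ± 0.25 (SD, n = 5) in T cell ICA mice, 7.22 ± 0.23 (n = 4) in T cell vehicle mice, 6.40 ± 0.11 (n = 5) in marrow-only ICA mice and 6.23 ± 0.23 (n = 4) in marrow-only vehicle mice. It rose by 0.99 ± 0.14 under vehicle (adjusted p = 0.00101, limma) and by 0.54 ± 0.12 under ICA (adjusted p = 0.0167). Apoe, the lipid carrier apolipoprotein E, rose by 0.52 ± 0.10 under vehicle (adjusted p = 0.00943) and by 0.37 ± 0.09 under ICA (adjusted p = 0.0233). F13a1, the coagulation factor XIII A chain of macrophages, and Ms4a7 also rose in both comparisons, F13a1 by 0.73 ± 0.16 and 0.65 ± 0.14 and Ms4a7 by 0.57 ± 0.12 and 0.48 ± 0.11. Folr2, the folate receptor beta, had means of 8.09 ± 0.47 (SD, n = 5), 7.54 ± 0.30 (n = 4), 6.92 ± 0.40 (n = 5) and 6.84 ± 0.14 (n = 4) in the same order of groups, and rose under ICA by 1.17 ± 0.20 (adjusted p = 0.00191, limma). The chemokine Cxcl16 rose under vehicle by 0.47 ± 0.09 (adjusted p = 0.0133).

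Other complement genes were counted in lists. Of all genes, 0.794% rose and 0.681% fell with T cells under vehicle, and 1.05% rose and 2.07% fell under ICA. Of 10 genes of the C1 complex and classical pathway, none passed in either comparison of T cells with marrow only, and their medians were 0.15 under vehicle and 0.01 under ICA. The smallest p was that of C4b, a complement component cleaved by the C1 proteases, at 0.63 ± 0.18 under vehicle (adjusted p = 0.0844, limma) and 0.45 ± 0.16 under ICA (adjusted p = 0.14). It was the 1 gene of that list that passed in both comparisons without the 2 arrays that stood apart.

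Of 8 genes of the alternative pathway and complement regulators, none passed under vehicle, where Cfi, the protease factor I, was at -1.28 ± 0.37 (adjusted p = 0.0922, limma). Under ICA 1 rose, the membrane inhibitor Cd59a (0.33 ± 0.09, adjusted p = 0.0388), and 2 fell, the fluid-phase inhibitor Clu (-0.77 ± 0.15, adjusted p = 0.00661) and Cfi (-1.53 ± 0.33, adjusted p = 0.0129). Of 10 complement receptors, C3ar1, the receptor for the fragment C3a, rose in both comparisons. It averaged 8.44 ± 0.16 (SD, n = 5) in T cell ICA mice, 8.32 ± 0.15 (n = 4) in T cell vehicle mice, 7.91 ± 0.09 (n = 5) in marrow-only ICA mice and 7.85 ± 0.24 (n = 4) in marrow-only vehicle mice, with differences of 0.53 ± 0.10 under ICA (adjusted p = 0.00408) and 0.47 ± 0.11 under vehicle (adjusted p = 0.0352). The B cell complement receptor Cr2 fell under ICA (-0.68 ± 0.19, adjusted p = 0.0485, limma). In the fit without the 2 arrays that stood apart, Itgb2, a subunit of complement receptor CR3, also rose and Cfi also fell under vehicle, and Cfp also rose under ICA.

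**Figure D5:**
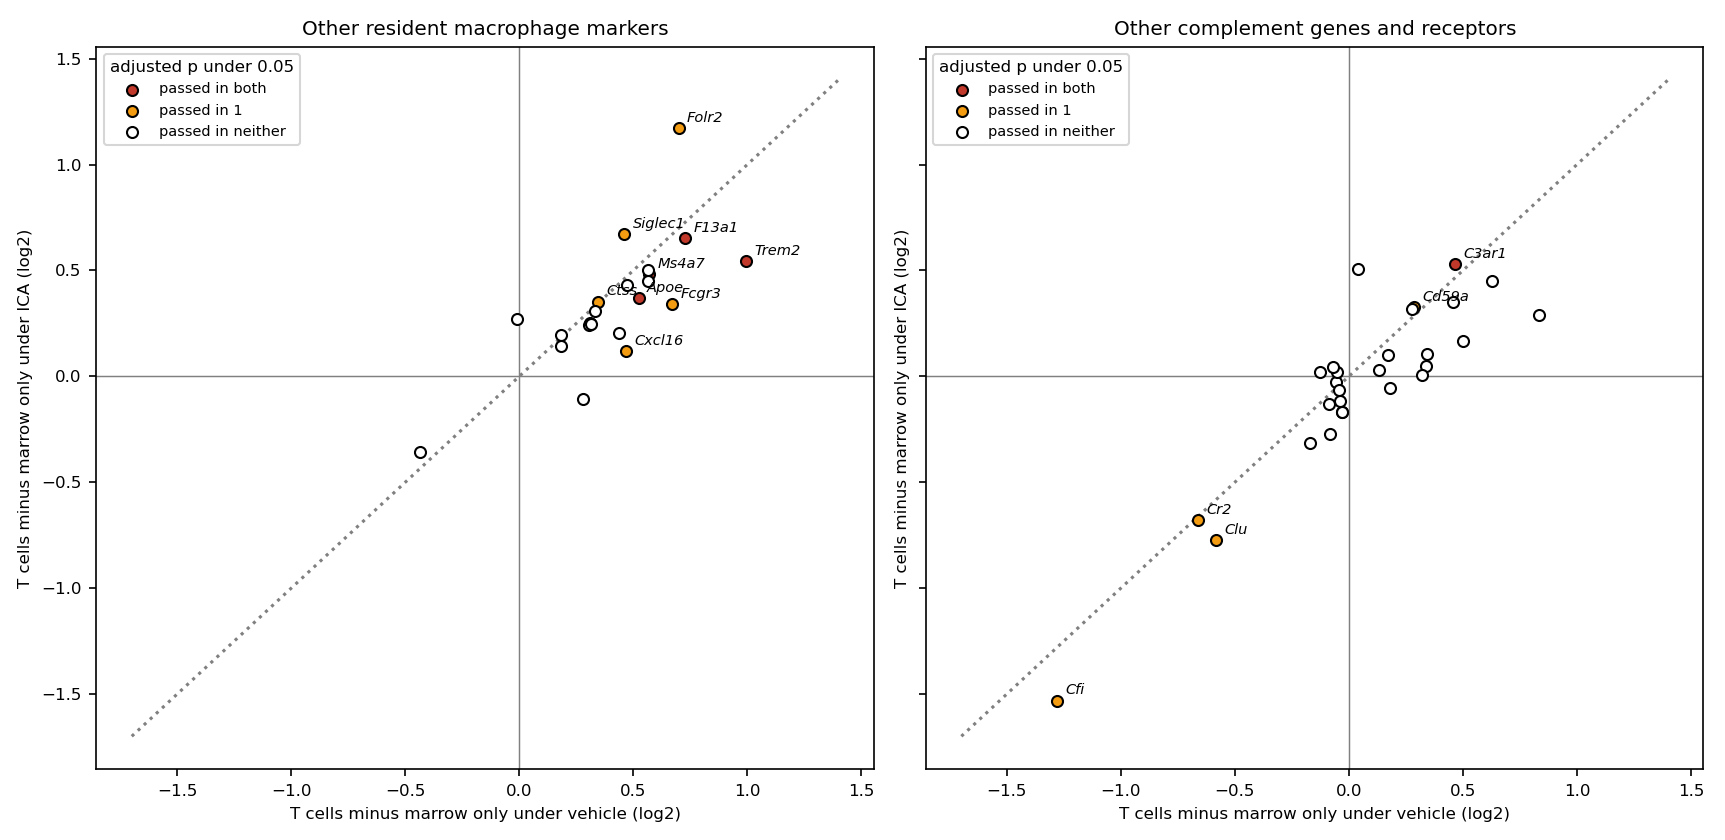
Difference between T cell and marrow-only mice (log2) under vehicle (x axis) and under ICA (y axis), with the 22 other resident macrophage markers on the left and the 3 lists of other complement genes on the right. Each point is a gene, red where it passed in both comparisons, orange where it passed in 1 and white where it passed in neither, and the dotted line marks equal differences; 20 of the 22 macrophage markers lie above 0 on both axes, and C3ar1 is the complement gene that passed in both.

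The ligands and transcription factors that act around Csf1r did not pass: of 11 genes, the smallest p was that of the adaptor Tyrobp under vehicle (0.47 ± 0.19, adjusted p = 0.251, limma) and of the second Csf1r ligand Il34 under ICA (-0.28 ± 0.10, adjusted p = 0.12). Among 10 scavenger receptors and iron-handling genes of macrophages none passed under vehicle, where the phagosomal metal transporter Slc11a1 was at 0.70 ± 0.18 (adjusted p = 0.0547). With the 2 arrays that stood apart left out, 3 rose there (Slc11a1, Hmox1 and Clec7a) and 1 fell (Slc40a1). Under ICA 1 rose, Hp, which encodes the haptoglobin bound by Cd163 (1.91 ± 0.38, adjusted p = 0.00685). The iron exporter Slc40a1, also abundant in enterocytes, fell (-2.0 ± 0.33, adjusted p = 0.00135, limma).

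Of 10 lysosome genes of phagocytes, Gpnmb and Ctsl rose under vehicle (1.39 ± 0.23, adjusted p = 0.00361, and 0.47 ± 0.08, adjusted p = 0.00646) and Gpnmb under ICA (0.98 ± 0.21, adjusted p = 0.00969, limma). Gpnmb is a glycoprotein of lipid-laden macrophages, and Ctsl is the protease cathepsin L. Of 9 monocyte genes, 1 rose in each comparison, Fn1 (0.60 ± 0.12 and 0.76 ± 0.11), which fibroblasts also express, and without the 2 arrays that stood apart Chil3 rose under ICA too. In both comparisons of ICA with vehicle, and for the interaction, none of the 199 measured entries of the 21 lists passed in limma. At an unadjusted p under 0.05 there were 27 of the 199 with T cells, 18 without and 15 for the interaction. Of all genes, 6.89%, 7.52% and 6.68% were under 0.05 in the same order. Mertk, a receptor for dying cells, had the smallest p of the macrophage list in both arms, with ICA minus vehicle at -0.46 ± 0.14 with T cells (adjusted p = 0.398) and -0.44 ± 0.14 without (adjusted p = 0.598, limma). Without the 2 arrays that stood apart it passed in marrow-only mice, as did Cd3d (higher) and Alpi (lower), and Mcpt1 passed in T cell mice (higher).

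Some markers of other cells also rose or fell between the arms, and their part in the differences of the members was not tested. Of 9 T cell markers, 4 rose under vehicle (Cd8b1, Cd8a, Cd3g and Cd3e), and under ICA 2 rose (Cd8b1 by 2.06 ± 0.18 and Cd8a by 1.98 ± 0.22) and 1 fell (Cd4, -0.71 ± 0.19). Their mean ran from 7.70 to 8.48 in T cell ICA mice and 7.78 to 8.66 in T cell vehicle mice, against 6.97 to 7.94 in marrow-only ICA mice and 6.82 to 7.40 in marrow-only vehicle mice. Of 13 neutrophil markers, which share Lyz2 with macrophages, 1 rose under vehicle (Retnlg, 2.20 ± 0.39) and none under ICA. Of 8 mast cell markers 2 fell under vehicle (Mcpt1 and Mcpt2), and of 7 B and plasma cell markers 2 fell under vehicle (Cd79a and Cd79b) and 3 under ICA (both and Ms4a1). Of 10 dendritic cell markers, cells that can also make C1q, none passed under vehicle and 1 fell under ICA (Xcr1). Their mean lay at 7.05 to 7.25 in T cell ICA mice, 7.07 to 7.20 in T cell vehicle mice, 7.02 to 7.48 in marrow-only ICA mice and 6.97 to 7.13 in marrow-only vehicle mice.

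Of 9 Paneth cell genes, 2 (Mmp7 and Pla2g2a) fell in each comparison of T cells with marrow only, and the list mean ran from 11.30 to 12.28 in T cell ICA mice and from 9.16 to 12.67 in T cell vehicle mice, against 12.28 to 12.56 in marrow-only ICA mice and 12.49 to 12.65 in marrow-only vehicle mice. Of 7 smooth muscle markers none passed under vehicle and 6 rose under ICA, led by Cnn1, Tagln and Actg2, and of 8 fibroblast and matrix genes none passed under vehicle and 3 rose under ICA (Col1a2, Col1a1 and Col3a1). The smooth muscle mean was at 10.70 to 11.12 in T cell ICA mice and 10.69 to 10.99 in T cell vehicle mice, above the 10.43 to 10.64 of marrow-only ICA mice and the 10.40 to 10.65 of marrow-only vehicle mice. Of 10 blood and lymphatic endothelial markers none passed under vehicle and 2 rose under ICA (Vwf and Cdh5). None of the 10 ileal epithelial markers passed in either comparison. When the 2 arrays that stood apart were left out, 3 of them rose (Vil1, Fabp2 and Alpi) and 1 fell (Lgr5) under ICA, and none passed under vehicle. In the same fit 7 T cell markers rose under vehicle, 4 B and plasma cell markers fell under vehicle and 5 under ICA, 3 Paneth cell genes fell under vehicle, and Sirpa of the dendritic list and Thy1 of the fibroblast list rose under vehicle. Under ICA 2 dendritic markers fell (Xcr1 and Siglech) and 1 endothelial marker rose (Vwf).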

How the data were processed

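RNA of the ileum of 18 mice was hybridised to Affymetrix whole-transcript mouse arrays, 1 per mouse, per the labels' protocols. The deposited log2 values were taken as RMA-normalised over all arrays: the tools in the submitters' processing notes are RMA, GenomeStudio and Partek, without versions, and the log base is not given in the sources used here. Of 41345 probe sets, 23521 had 1 gene symbol in the platform annotation, 1814 had several and 16010 had no listed name. A gene was read from its probe set with the highest mean, which gave 22180 genes. No filter was applied.

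Group means of the 4 groups were estimated in 1 fit of the 18 arrays, with limma 3.58.1 in R 4.3.3 (eBayes with a trend, 14 residual and 6.1 prior degrees of freedom). All tests are two-sided and p-values were adjusted over all genes of a comparison (Benjamini-Hochberg). Correlations of deviations from group means were tested by 100000 permutations within groups. In simulated data with 200 of 22180 genes changed, a difference of 0.5 between T cell and marrow-only mice was recovered for 47% of genes under vehicle and 63% under ICA, and a difference of 1 for 94% and 96%. For ICA against vehicle, 52% of changes of 0.5 were recovered with T cells and 53% without. These shares apply to 200 changed genes. In the measured data, ICA against vehicle gave 3 called genes with T cells and 1 without. Recovery with fewer changed genes was not tested.

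The members and lists were chosen with earlier results of these data known. By a fixed rule the text names all members, Lyz1, from each list the called genes (at most the 3 with the smallest p) or else the 1 with the smallest p, and the 5 and 3 genes most like the C1q mean and Lyz2. Trem2, Apoe, F13a1 and Ms4a7 are given in both comparisons, whichever the rule named them in. Timd4, Cd3e, Car1 and genes named because they passed without the 2 arrays that stood apart fall outside the rule and were picked with their values in view. The labels call the mice biological replicates, and what the replicate numbers mark is not stated. Deviations of same-numbered mice correlated at -0.14 to 0.20, over 0.1 in 3 of 25 pairs. Mice of different numbers were not compared, so these values cannot decide whether the numbers mark a pairing. Alternatives were other samples in the fit, normalizations, filters, probe sets, priors, array weights and each mouse left out. The number of arrays limits the precision.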

Additional observations from a re-analysis of the deposited data

Results flagged for a closer look

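Of the 40 sets of values of 1 member in 1 group, 3 held a mouse whose gap to the nearest other mouse was large beside the range of its group by Dixon's criterion, which chance alone meets in about 1 group in 20. Mouse 1 of the T cell ICA group had an Mrc1 level of 7.86, against 8.61 to 8.84 in the other mice of its group, and its array was 1 of the 2 that stood apart. Mouse 3 of the marrow-only vehicle group was the lowest of its group for C1qc, at 7.71, with the others at 7.96 to 7.98. The same mouse was the highest of its group for Cd163, at 6.05, with the others at 5.69 to 5.74. For no member did the effect of ICA differ between the arms by the interaction test.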

How the results depend on the processing

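Over 1075 recomputed values of single members, 33 lost their call, 18 gained one and 1024 stayed on their side of the threshold. Most of the 1075 were of differences not called in the main fit, which had no call to lose. Under vehicle C1qa lost its call in 3 of 11 other settings and in 8 of 8 fits leaving out 1 mouse. C1qb lost it in 1 of 11 and 5 of 8, and Csf1r in 0 of 11 and 4 of 8. Under ICA Csf1r lost it in 4 of 11 and 8 of 10, and Mrc1 lost none in either comparison. Among all 1075 values 52 changed sign, each for a difference that had not passed. For T cells against marrow only under vehicle, the 4 members called became 6 when only the groups compared were fitted, with array weights and without the 2 arrays that stood apart, 5 among genes above the median level, 3 without a trend and with a robust prior, 2 with all probe sets tested, and 1 to 5 with 1 mouse left out. The 327 genes called in that comparison became 824 when only the groups compared were fitted, 204 with all probe sets and 1074 with array weights. They became 754 without the 2 arrays that stood apart and 94 to 326 with 1 mouse left out. Among genes above the median level 369 were called, without a trend 250 and with a robust prior 299. Under ICA, the 2 members called became 1 when only the groups compared were fitted, with all probe sets, without a trend and with a robust prior, 4 with array weights, 3 without the 2 arrays that stood apart and among genes above the median level, and 1 to 4 with 1 mouse left out. The 693 genes called there became 321 when only the groups compared were fitted and 1049 with array weights. They became 1446 without the 2 arrays that stood apart and 378 to 1373 with 1 mouse left out. With all probe sets 575 were called, without a trend 546, with a robust prior 687 and among genes above the median level 847. For ICA against vehicle with T cells, the 3 genes called became 49 when only the groups compared were fitted, 13 with array weights, and 1 to 9 with 1 mouse left out. Without T cells, the 1 gene called became 0 when only the groups compared were fitted, with the replicate block, with all probe sets and with a robust prior, 183 without the 2 arrays that stood apart, and 0 to 119 with 1 mouse left out. The interaction gave 0 to 2 genes with 1 mouse left out. No member was called for ICA against vehicle or the interaction in any of these fits. The causes were not tested, other than that fewer mice or more features entered some fits. With the replicate number as a block, 6 members and 382 of 22180 genes were called under vehicle. C1qc and Cd68 were added (adjusted p = 0.0357 each, limma), and the other member calls were as before. Whether the replicate number marks a pairing was not settled. Of the 45 pairs of members, 13 passed without the 2 mice farthest from the median of the first gene and 13 without the 2 arrays that stood apart. Cd163 was not tested among genes above the median level, and Cd14 under ICA passed there (adjusted p = 0.048) and with array weights (adjusted p = 0.047). Centring the arrays on their medians moved the median difference of all genes by under 0.1. Each member has 1 probe set, so no value could be checked against a second one.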

Other observations

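Timd4, a receptor for dying cells on long-lived resident macrophages, ran against most of the macrophage list, and it is given here after its values were seen. Its mean was 6.00 ± 0.11 (SD, n = 5) in T cell ICA mice and 6.03 ± 0.17 (n = 4) in T cell vehicle mice, against 6.36 ± 0.19 (n = 5) in marrow-only ICA mice and 6.47 ± 0.14 (n = 4) in marrow-only vehicle mice. The differences of -0.36 under ICA and -0.43 under vehicle did not pass (adjusted p = 0.0583 and 0.0573, limma). The highest T cell vehicle mouse, at 6.27, was below all marrow-only vehicle mice, the lowest of which was at 6.37. The share of all genes separated in this direction is not given here, so this layout is not read as a result.

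Slc40a1 averaged 8.24 ± 0.50 (SD, n = 5) in T cell ICA mice and 8.62 ± 0.41 (n = 4) in T cell vehicle mice, against 10.24 ± 0.69 (n = 5) in marrow-only ICA mice and 9.94 ± 0.77 (n = 4) in marrow-only vehicle mice. Hp averaged 9.57 ± 0.44 (SD, n = 5) and 9.03 ± 0.84 (n = 4) in T cell mice with ICA and vehicle, and 7.66 ± 0.98 (n = 5) and 7.86 ± 0.37 (n = 4) in marrow-only mice with ICA and vehicle. The most tightly grouped mice for Cd14 were those given T cells and ICA, with an SD of 0.08, against 0.38 in T cell vehicle mice. That difference in spread was not tested.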
